A study of Mus musculus with 18 samples.

Results

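The dual-specificity MAP kinase phosphatases described here are the 9 genes Dusp1, Dusp2, Dusp3, Dusp4, Dusp5, Dusp6, Dusp10, Dusp14 and Dusp16, found by their symbols among the 20615 genes of the deposited RNA-seq table. The rule used no measured value, but the members were chosen with earlier results of these data known. All 9 passed the filter on low counts that left 15789 genes for testing. By the deposited mm10 coordinates, which span each gene with its exons and introns, they lie with Dusp1 at chr17:26505590-26508520 (minus strand), Dusp2 at chr2:127336159-127338377 (plus strand), Dusp3 at chr11:101971143-101987014 (minus strand), Dusp4 at chr8:34807297-34819895 (plus strand), Dusp5 at chr19:53529109-53542432 (plus strand), Dusp6 at chr10:99263231-99267489 (plus strand), Dusp10 at chr1:184013302-184075637 (plus strand), Dusp14 at chr11:84048041-84069262 (minus strand) and Dusp16 at chr6:134715468-134792626 (minus strand). They were read in bone marrow-derived macrophages (BMDMs) of C57BL/6 (B6) mice and of C57BL/6.NOD-Aec1Aec2 mice, called SjSS here, a Sjögren's syndrome model in which NOD chromosome intervals were bred onto the B6 background. BMDMs are macrophages grown from marrow with the growth factor M-CSF, here in L929 cell supernatant up to day 7, from mice aged 7 to 12 weeks that the study's methods give as female. BMDMs of each strain were left untreated as control, given CpG, a DNA oligonucleotide that stimulates a Toll-like receptor, at 1 µM for 6 h, or given apoptotic cells (ACs), with 3 samples in each of the 6 groups. The ACs were thymocytes killed with the glucocorticoid dexamethasone, added at 5 per BMDM for 2 h and washed away, and the labels give a further 3 h of culture. AC and CpG samples therefore differ in the length of treatment as well as in its kind. Which strain's thymocytes each BMDM sample received was not stated for these samples.

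Dual-specificity phosphatases remove phosphate from both the threonine and the tyrosine that switch a MAP kinase on, and so end signals carried by ERK, p38 and JNK. Several of their genes are themselves switched on by the pathways that the proteins restrain, which makes their transcripts a readout of recent signalling as well as a brake on it. In macrophages, DUSP1 is known for limiting p38 and JNK activity after Toll-like receptor stimulation and with it the output of inflammatory cytokines. The 9 genes fall into 4 kinds: the inducible nuclear phosphatases DUSP1, DUSP2, DUSP4 and DUSP5, the cytoplasmic ERK phosphatase DUSP6, the JNK and p38 phosphatases DUSP10 and DUSP16, and the small atypical phosphatases DUSP3 and DUSP14, which lack the MAP kinase binding domain of the others.

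Promoter sequence is shown, to set the responses below beside the letters upstream of each gene, for the 5 genes whose deposited start lay within 50 bases of a RefSeq start, namely Dusp1, Dusp2, Dusp5, Dusp6 and Dusp16. Each line is the 200 bases before the start, the more upstream one where the starts differed, from the RefSeq promoters of GRCm38.p6 (mm10), 5′ to 3′ on the gene's strand, with capitals marking the motif matches named below.
Dusp1, chr17:26508521-26508720, minus strand: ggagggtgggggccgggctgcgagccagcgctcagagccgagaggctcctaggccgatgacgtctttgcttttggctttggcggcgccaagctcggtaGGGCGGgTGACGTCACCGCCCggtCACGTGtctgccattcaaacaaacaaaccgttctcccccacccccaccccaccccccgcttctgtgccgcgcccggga
Dusp2, chr2:127335959-127336158, plus strand: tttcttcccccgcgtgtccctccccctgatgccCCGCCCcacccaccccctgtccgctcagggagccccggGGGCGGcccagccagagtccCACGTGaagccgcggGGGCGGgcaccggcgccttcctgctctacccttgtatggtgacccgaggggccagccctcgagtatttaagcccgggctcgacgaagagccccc
Dusp5, chr19:53528909-53529108, plus strand: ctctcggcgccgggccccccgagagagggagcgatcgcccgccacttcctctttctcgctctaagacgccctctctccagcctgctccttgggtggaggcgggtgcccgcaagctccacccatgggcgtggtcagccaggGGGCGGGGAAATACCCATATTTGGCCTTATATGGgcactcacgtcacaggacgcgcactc
Dusp6, chr10:99263031-99263230, plus strand: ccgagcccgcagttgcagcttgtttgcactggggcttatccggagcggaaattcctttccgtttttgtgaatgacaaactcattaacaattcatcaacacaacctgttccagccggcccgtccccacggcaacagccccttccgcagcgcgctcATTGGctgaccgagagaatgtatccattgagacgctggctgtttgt
Dusp16, chr6:134792629-134792828, minus strand: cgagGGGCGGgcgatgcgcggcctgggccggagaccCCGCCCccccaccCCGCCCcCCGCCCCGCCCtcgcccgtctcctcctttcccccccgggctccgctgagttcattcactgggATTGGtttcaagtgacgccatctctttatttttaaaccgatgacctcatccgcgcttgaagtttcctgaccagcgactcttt
The cAMP response element TGACGTCA was present in the Dusp1 window, from 95 to 88 bases upstream, and in 1.47% of 32851 RefSeq promoter windows of the same length. The E-box CACGTG was found in Dusp1 and in Dusp2, against 5.26% of all windows. Dusp5 alone of the 5 held the NF-kB letters GGG and TTTCC with 2 free bases between them, on the strand opposite to the gene and from 54 to 45 bases upstream, a match that 1.18% of windows had. Dusp5 also alone held CArG boxes, the serum response factor letters CC and GG with 6 bases of A or T between them. They lay from 46 to 37 and from 36 to 27 bases upstream, the former sharing 2 bases with the NF-kB match. At least 1 was in 1.18% of windows. The CArG pattern was widened to its full consensus after these sequences were read, so that its comparison with all windows is not independent. GC boxes (GGGCGG) stood in Dusp1, Dusp2, Dusp5 and Dusp16, with 5 copies in Dusp16 of which 2 share a base, and 31.0% of windows had at least 1. The CCAAT box (CCAAT) was in Dusp6 and Dusp16 and in 29.3% of windows. Both strands were searched. None of the 5 windows held the letters of an AP-1 site (TGACTCA), a GAS (TTCNNNGAA), an interferon response core (GAAA repeated after 2 free bases), an ETS site (CCGGAAGT) or a TATA box (TATAAA), which were in 3.66%, 5.49%, 2.27%, 2.68% and 9.96% of windows. Each motif was searched only in the form given. G and C made up 68.0% of the Dusp1 window, 72.0% for Dusp2, 66.0% for Dusp5, 54.0% for Dusp6 and 65.0% for Dusp16, and the median window had 53.0%. These windows are of the C57BL/6J reference, and the SjSS sequence was not read.

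The deposited values were estimated read counts per gene, which summed to between 30688336 and 57139662 per sample with a median of 47912525. Levels are given as CPM, the count of a gene relative to the TMM-scaled library total. Of 10 macrophage markers, all were in the table, and their summed level was 15600 to 23900 CPM in the 18 samples. Of 28 T lineage genes, the markers of thymocytes, 25 were found in the table and 9 left by the filter. Their summed level lay between 73.1 and 89.3 CPM in B6 control, 28.2 and 35.4 in B6 with ACs, 68.0 and 84.5 in SjSS control and 45.6 and 50.2 in SjSS with ACs, and was carried by Cd28 and Cd4, which untreated B6 cultures held at 59.4 to 76.0 and 7.73 to 9.52 CPM. The 16 T lineage genes under the filter summed to 0.352 to 0.604 CPM in B6 control and 1.11 to 1.94 with ACs, and to 0.177 to 0.774 in SjSS control and 0.736 to 1.11 with ACs. Among these, Rag1 and Dntt, which mark immature thymocytes, were at 0 counts in B6 control and at 0.139 to 0.178 and 0.0757 to 0.159 CPM in B6 with ACs, while Rag1 was at 0.021 to 0.0258 CPM in SjSS with ACs, and Cd3e did not exceed 0.107 CPM in any sample. The part of thymocyte RNA in the AC results below was not tested. Summed levels of 7 fibroblast markers were 153 to 238 CPM in SjSS and 41.8 to 138 CPM in B6, and those of 8 B cell markers 34.5 to 51.0 and 16.9 to 34.9 CPM. Dendritic cell markers (7 of 8 in the table) summed to 3.13 to 3.93 CPM in SjSS and 1.25 to 1.53 CPM in B6 with ACs, and neutrophil markers (6 of 10) to 11.2 to 13.2 CPM in B6 with CpG and 3.71 to 5.43 CPM in B6 control. The part of such cells in the differences below was not tested. In cultures measured in bulk, fewer cells of a type and less RNA per cell cannot be told apart. The paper's figure legend gives 3 mice of each strain, with BMDMs left untreated or treated, so groups of a strain may share mice. The labels do not say which samples came from the same mouse, and the main tests held no term for it. The p-values therefore treat samples as independent and measure the spread between these samples.

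In untreated BMDMs the most abundant of the 9 transcripts per kilobase of exon were Dusp3 and Dusp6. Dusp3 stood at 47.0 CPM per kb in B6 and 42.4 in SjSS, Dusp6 at 43.1 and 37.4, and Dusp1 came next at 16.3 and 18.4. Dusp16, Dusp4, Dusp2 and Dusp5 lay between 1.57 and 4.28 CPM per kb in both controls. Dusp10 and Dusp14 were the lowest in every group, at no more than 0.734 and 0.319 CPM per kb. The order differed after treatment. In B6 BMDMs with CpG, Dusp2 (40.7 CPM per kb) and Dusp1 (39.4) led, ahead of Dusp3 (24.4) and Dusp16 (21.7). With ACs, Dusp3 still led in B6 at 43.2 CPM per kb followed by Dusp1 at 24.3, whereas in SjSS Dusp1 stood at 34, Dusp3 at 31.5 and Dusp2 at 18.4, with Dusp6 at 6.69. The plot of levels per length shows these orders. Exon lengths are those of GENCODE M21.

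**Figure D1:**
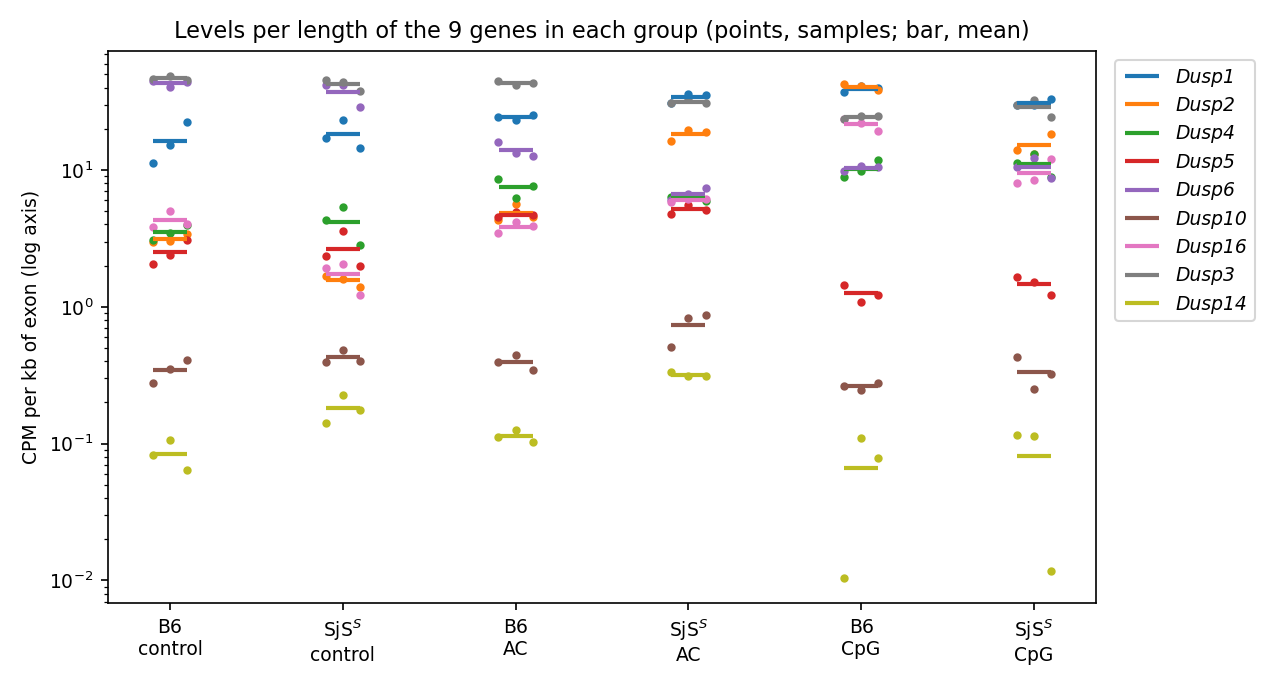
Level of each of the 9 genes in CPM per kb of exon on a log axis, for the 6 groups; points are the 3 samples of a group and bars their mean. Dusp3 and Dusp6 led in both controls (47.0 and 43.1 CPM per kb in B6), Dusp2 and Dusp1 led in B6 with CpG (40.7 and 39.4), and Dusp10 and Dusp14 were lowest throughout.

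Treatment moved most of the 9 transcripts. ACs raised Dusp1, Dusp2, Dusp4 and Dusp5 and lowered Dusp6 in BMDMs of both strains, with Dusp2 rising 11.7-fold in SjSS and 1.54-fold in B6. In SjSS, Dusp16 and Dusp10 also rose and Dusp3 fell with ACs, and the test of the difference from B6 passed for Dusp16 and Dusp3 and not for Dusp10 (adjusted p = 0.185). CpG raised Dusp1, Dusp2, Dusp4 and Dusp16 and lowered Dusp3, Dusp5 and Dusp6 in both strains. Dusp5 was the member that moved in opposite directions, up with ACs and down with CpG. Changes were tested with edgeR's quasi-likelihood method with Benjamini-Hochberg adjustment over the 15789 genes, and log2 fold changes are given ± SE. A change at an adjusted p under 0.05 is called significant, and one that also exceeds 1.3 in log2 size passes both thresholds.

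By count, 5 of the 9 genes were significant for the AC response in B6, against 38.3% of all genes tested, 4 of them higher (20.0% of all genes) and 1 lower (18.3%). Dusp6 alone passed both thresholds there, where 4.47% of all genes did. In SjSS the AC response was significant for 8 of 9 (58.0% of all genes), 6 higher (28.6%) and 2 lower (29.4%), and Dusp2, Dusp16 and Dusp6 passed both thresholds (3 of 9, 12.9% of all genes). The CpG response was significant for 7 of 9 in B6 (57.9% of all genes), 4 higher (28.1%) and 3 lower (29.8%), and 4 passed both thresholds (12.7%). For CpG in SjSS it was again 7 of 9 (54.2%), 4 higher (27.8%) and 3 lower (26.4%), with 4 past both (9.26%). The median log2 fold change of the 9 was 0.44, 0.82, -0.39 and -0.34 in these 4 responses, and that of all genes tested lay between -0.04 and 0.00. AC and CpG responses of a strain share its control samples. The paper's supplement already lists Dusp2 and Dusp16 as raised with ACs in SjSS in these data. The AC counts of members are therefore a description and not an independent comparison with all genes.

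**Figure D2:**
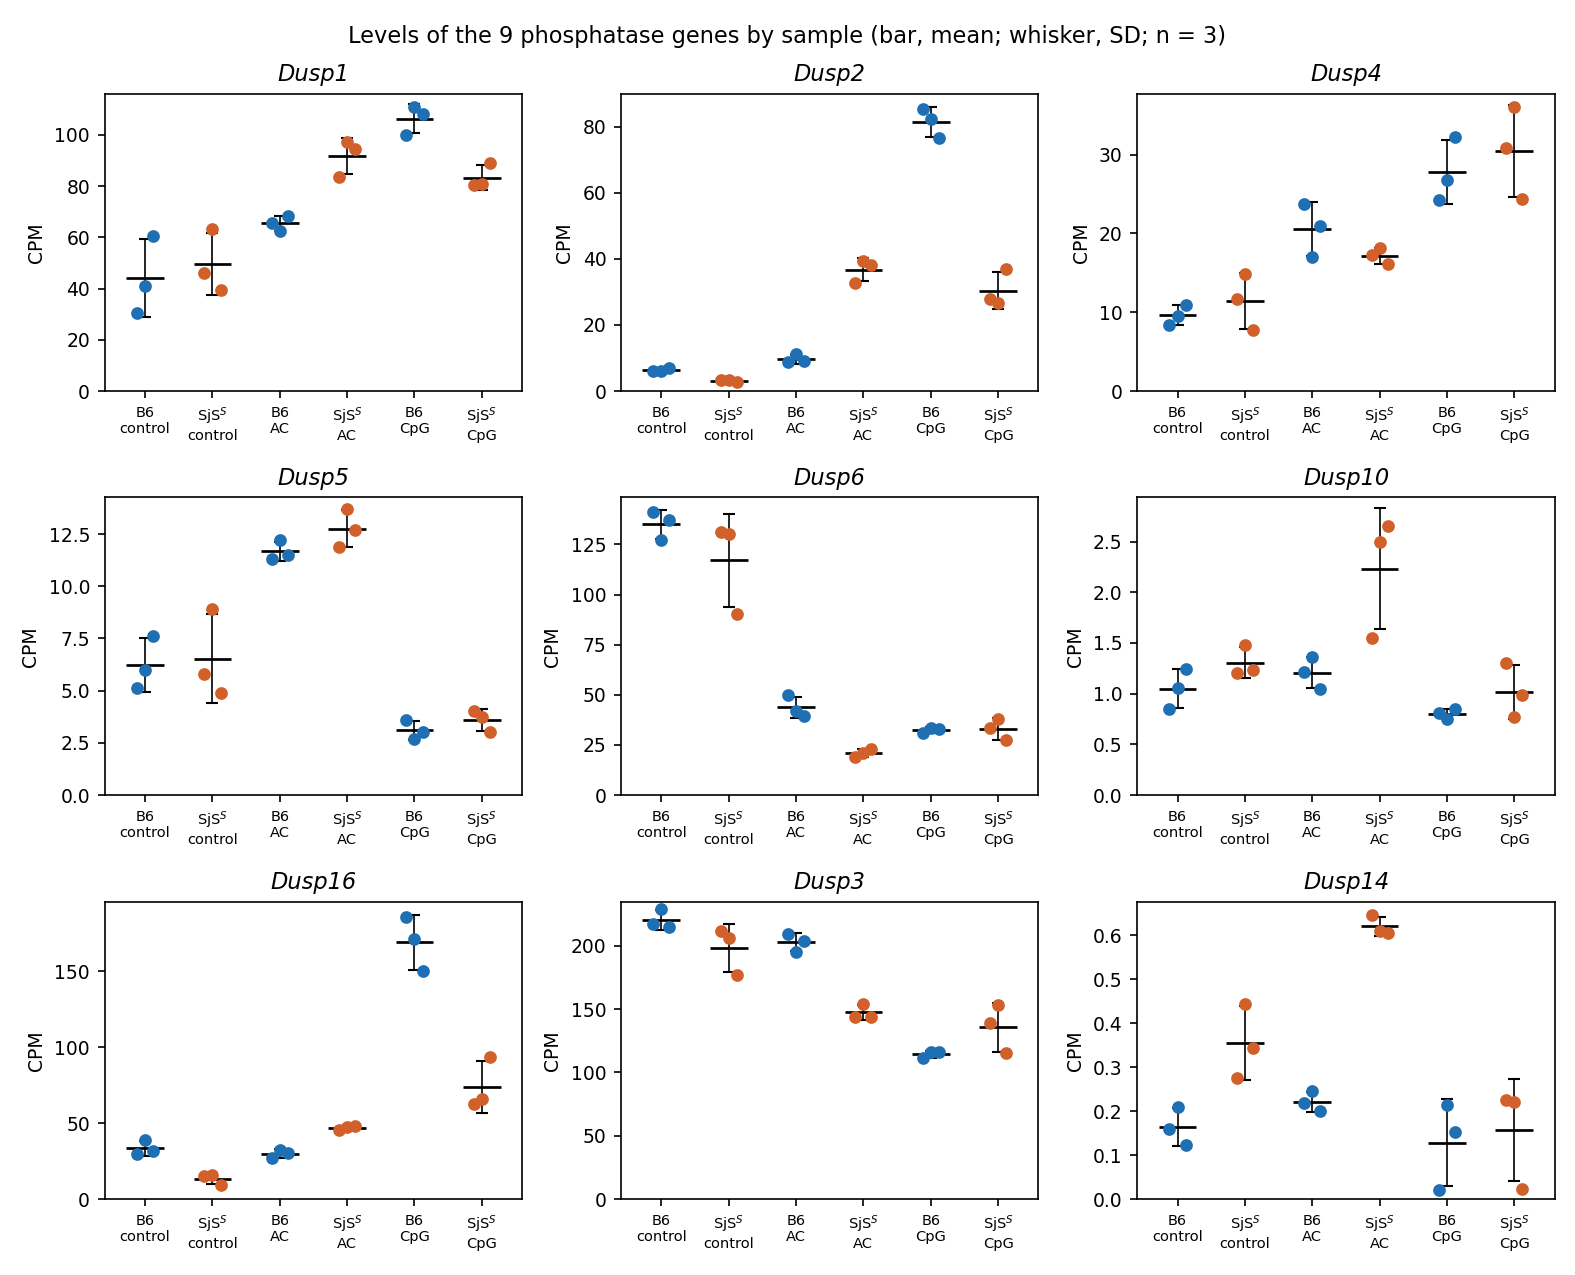
Level of each gene in CPM in every sample, with the mean (bar) and SD (whisker) of the 3 samples of each group, B6 in blue and SjSS in orange. Dusp2 with ACs lay between 32.8 and 39.3 CPM in SjSS and between 8.68 and 11.2 CPM in B6, and Dusp6 was lower in all treated samples than in any control.

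Among the inducible nuclear phosphatases, Dusp2 had the widest range. DUSP2, also called PAC-1, is an immune cell phosphatase whose mRNA is switched on in activated leukocytes. In B6 BMDMs its level was 5.92, 6.03 and 6.84 CPM in control, 8.68, 11.2 and 9.09 CPM with ACs, and 85.3, 82.4 and 76.6 CPM with CpG. In SjSS BMDMs it was 3.39, 3.22 and 2.81 CPM in control, 32.8, 39.3 and 38.2 CPM with ACs, and 27.8, 26.5 and 36.9 CPM with CpG. Neither treatment's samples overlapped the control of their strain, and the AC samples of the strains were apart from each other by more than their own spread. The AC response was 0.63 ± 0.13 on the log2 scale in B6 (adjusted p = 0.00063) and 3.55 ± 0.14 in SjSS (adjusted p = 5.7e-14). The CpG response was 3.70 ± 0.13 in B6 (adjusted p = 1.86e-14) and 3.28 ± 0.14 in SjSS (adjusted p = 3.74e-13). In SjSS, then, the AC and CpG samples of Dusp2 overlapped, while in B6 the level with CpG was 8.41-fold that with ACs.

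Dusp1 encodes the phosphatase that acts on p38 and JNK after inflammatory stimuli and is an immediate early gene. Its control values were widely spread, at 30.4, 41.2 and 60.5 CPM in B6 and 46.2, 63.1 and 39.4 CPM in SjSS. With ACs it reached 65.5, 62.6 and 68.3 CPM in B6 and 83.6, 97.1 and 94.6 CPM in SjSS. With CpG it was 100, 111 and 108 CPM in B6 and 80.3, 80.8 and 88.9 CPM in SjSS. Each treated group lay above the control of its own strain without overlap, and the B6 group with ACs was apart from the highest B6 control by little. Dusp1 rose by 0.57 ± 0.17 with ACs in B6 (1.49-fold, adjusted p = 0.0138) and by 0.90 ± 0.17 in SjSS (1.86-fold, adjusted p = 0.000212). The rise in B6 rested on the control samples: leaving out 1 sample in turn gave 0.36 to 0.87, and the call was lost without B6 control replicate 1 (0.36, adjusted p = 0.0801) and without replicate 2 (0.53, adjusted p = 0.0507). With CpG, Dusp1 rose by 1.27 ± 0.18 in B6 (2.42-fold, adjusted p = 3.95e-06), which was 1.57 without B6 control replicate 3 and 1.32 without B6 CpG replicate 1, and by 0.76 ± 0.17 in SjSS (1.69-fold, adjusted p = 0.00115).

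Dusp4, a nuclear phosphatase of ERK and JNK, was at 8.42, 9.57 and 10.9 CPM in B6 control, 23.7, 17.0 and 21.0 CPM with ACs and 24.3, 26.8 and 32.3 CPM with CpG. In SjSS it was at 11.7, 14.8 and 7.70 CPM in control, 17.3, 18.1 and 16.1 CPM with ACs and 30.9, 36.1 and 24.4 CPM with CpG. All treated samples lay above the controls of their strain, with the CpG samples highest in each. The AC response was 1.10 ± 0.19 in B6 (2.14-fold, adjusted p = 0.000117) and 0.61 ± 0.19 in SjSS (1.53-fold, adjusted p = 0.00962), and the latter fell to 0.38 with an adjusted p of 0.0693 without SjSS control replicate 3. That control sample was the lowest of its group for 7 of the 9 genes. CpG raised Dusp4 past both thresholds in B6 (1.53 ± 0.19, 2.89-fold, adjusted p = 8.92e-07) and in SjSS (1.43 ± 0.19, 2.70-fold, adjusted p = 2.51e-06). In SjSS the value came under the fold threshold without control replicate 3 (1.21) or CpG replicate 2 (1.29).

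Dusp5 encodes a nuclear phosphatase specific to ERK and was the nuclear member that fell with CpG. It stood at 5.11, 5.97 and 7.64 CPM in B6 control and 5.78, 8.93 and 4.91 CPM in SjSS control. ACs brought it to 11.3, 12.2 and 11.5 CPM in B6 and 11.9, 13.7 and 12.7 CPM in SjSS, and CpG to 3.59, 2.69 and 3.04 CPM in B6 and 4.05, 3.76 and 3.01 CPM in SjSS. In both strains the 3 groups did not overlap, with ACs above and CpG below control. The rise with ACs was 0.90 ± 0.18 in B6 (adjusted p = 0.000421) and 0.98 ± 0.18 in SjSS (adjusted p = 9.76e-05). The fall with CpG was -1.0 ± 0.19 in B6 (adjusted p = 0.000173) and -0.84 ± 0.19 in SjSS (adjusted p = 0.000971).

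Dusp6 encodes a cytoplasmic phosphatase of ERK whose transcript is itself raised by ERK signalling, and it fell in all 4 responses. Its level was 141, 127 and 137 CPM in B6 control and 131, 130 and 90.2 CPM in SjSS control. With ACs it was 49.8, 41.9 and 39.3 CPM in B6 and 18.8, 21.0 and 23.1 CPM in SjSS, so that the SjSS samples all lay under the lowest B6 sample. With CpG the strains overlapped, at 30.9, 33.4 and 33.0 CPM in B6 and 33.3, 38.1 and 27.3 CPM in SjSS. The AC response was -1.63 ± 0.13 in B6 (3.09-fold lower, adjusted p = 1.41e-08) and -2.48 ± 0.14 in SjSS (5.58-fold lower, adjusted p = 1.09e-11). The CpG response was -2.06 ± 0.13 in B6 (4.16-fold lower, adjusted p = 1.31e-10) and -1.83 ± 0.13 in SjSS (3.56-fold lower, adjusted p = 8.84e-10).

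Of the JNK and p38 phosphatases, Dusp16 stood above Dusp10 in every group. Per kilobase of exon, Dusp16 came behind Dusp3, Dusp6 and Dusp1 in both controls. In SjSS control, at 1.73 CPM per kb, it was also behind Dusp4 (4.16) and Dusp5 (2.65). DUSP16, or MKP-7, acts mainly on JNK and shuttles between nucleus and cytoplasm. Dusp16 stood at 29.7, 38.8 and 31.5 CPM in B6 control and at 15.0, 15.9 and 9.59 CPM in SjSS control, with no overlap. ACs left it at 26.8, 32.6 and 30.6 CPM in B6 and brought it to 45.7, 47.5 and 48.0 CPM in SjSS. CpG brought it to 186, 171 and 150 CPM in B6 and to 62.6, 65.6 and 93.6 CPM in SjSS. B6 samples with ACs overlapped their control, whereas SjSS samples with ACs lay above every control of either strain. The AC response was -0.15 ± 0.16 in B6 (adjusted p = 0.504), which did not pass the test, and 1.81 ± 0.17 in SjSS (3.52-fold, adjusted p = 2.08e-08). The CpG response was 2.34 ± 0.16 in B6 (5.08-fold, adjusted p = 3.01e-10) and 2.47 ± 0.17 in SjSS (5.52-fold, adjusted p = 4.04e-10).

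Dusp10 encodes MKP-5, which acts on p38 and JNK. It had only 107 to 297 counts over the 3 samples of a group, and its locus overlaps 1700056E22Rik on the opposite strand; whether counting used the strand was not given in the sources used here, so that reads of the pair may not be told apart. It was at 0.849, 1.06 and 1.24 CPM in B6 control, 1.21, 1.36 and 1.05 with ACs and 0.806, 0.746 and 0.848 with CpG. In SjSS it was at 1.2, 1.48 and 1.23 CPM in control, 1.55, 2.50 and 2.65 with ACs and 1.3, 0.766 and 0.982 with CpG. The SjSS samples with ACs were the highest of all and did not overlap any other group. Dusp10 rose with ACs in SjSS by 0.79 ± 0.23 (adjusted p = 0.00689). The other responses were 0.20 ± 0.24 with ACs in B6 (adjusted p = 0.548), -0.39 ± 0.25 with CpG in B6 (adjusted p = 0.197) and -0.34 ± 0.25 with CpG in SjSS (adjusted p = 0.255).

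The small atypical phosphatases were the highest and the lowest of the 9 per kilobase in both controls. DUSP3, also called VHR, acts on ERK and JNK. Dusp3 was at 217, 229 and 215 CPM in B6 control, 209, 195 and 204 with ACs and 111, 116 and 116 with CpG. SjSS control samples had 212, 206 and 177 CPM, those with ACs 144, 154 and 144 and those with CpG 139, 153 and 115. Every treated SjSS sample lay below every SjSS control. Dusp3 fell with ACs in SjSS (-0.43 ± 0.08, adjusted p = 0.000155) and its AC response in B6 was -0.12 ± 0.08 (adjusted p = 0.268). It fell with CpG in B6 (-0.95 ± 0.08, adjusted p = 8.08e-09) and in SjSS (-0.55 ± 0.08, adjusted p = 1.12e-05).

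Dusp14, which encodes MKP-6, had 226 counts in all over the 18 samples, and the SE of its responses was 0.49 to 0.62 on the log2 scale. Its group totals were 27 counts in B6 control, 33 with ACs and 16 with CpG, and 49, 81 and 20 in SjSS. No response of Dusp14 passed the test, with values of 0.82 ± 0.49 for ACs in SjSS (adjusted p = 0.164, or 0.0442 when only those 6 samples were fitted) and -1.15 ± 0.57 for CpG in SjSS (adjusted p = 0.0954). Its levels with ACs were 0.218, 0.246 and 0.201 CPM in B6 and 0.646, 0.610 and 0.606 CPM in SjSS.

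**Figure D3:**
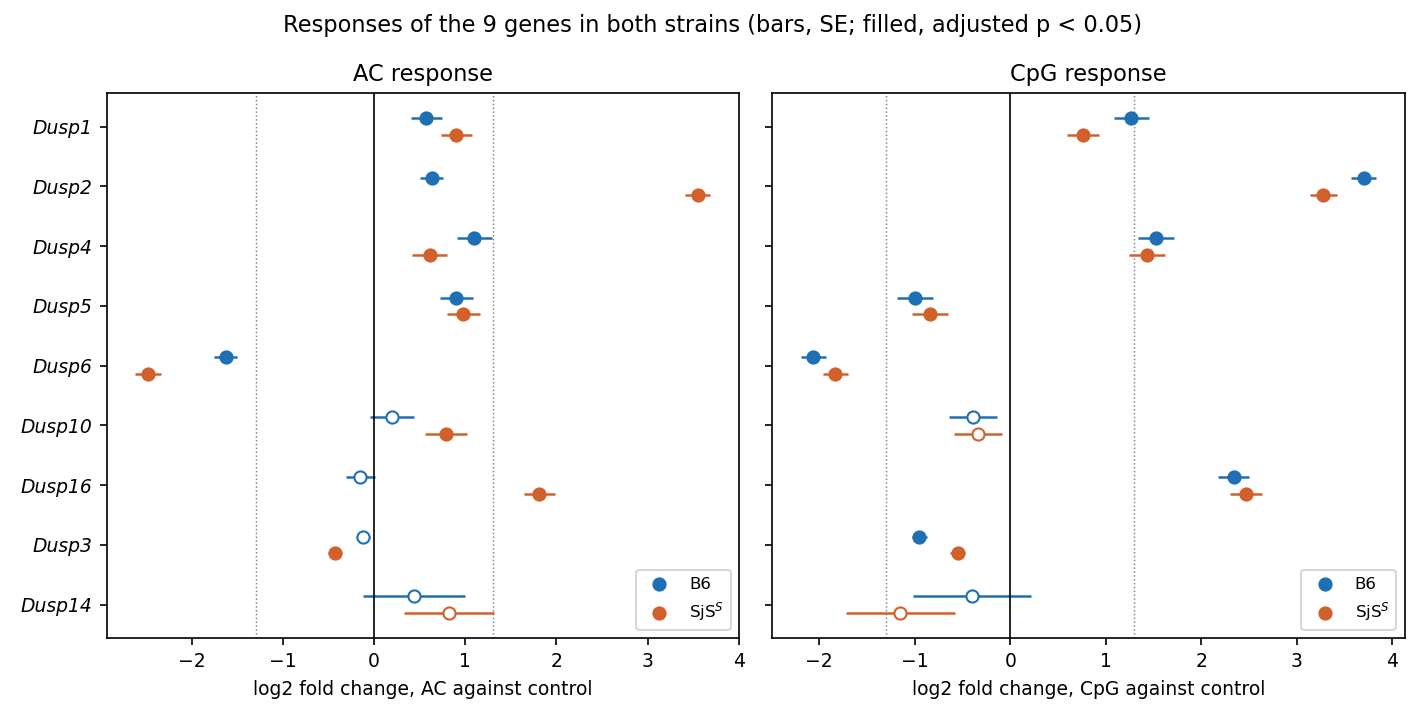
Log2 fold change of each gene with ACs (left) and with CpG (right) against the control of the same strain; bars are SE, filled points have an adjusted p under 0.05 and dotted lines mark 1.3 in either direction. Dusp2 and Dusp16 lay far apart between strains with ACs (3.55 against 0.63 and 1.81 against -0.15) and near each other with CpG.

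The strains were compared directly in each condition, as SjSS minus B6. Without treatment 2 of the 9 genes differed significantly, against 19.6% of all genes, with 0 higher (9.04% of all genes) and 2 lower (10.6%) in SjSS. These were Dusp16 at -1.31 ± 0.17 (2.49-fold lower, adjusted p = 2.28e-05) and Dusp2 at -1.0 ± 0.14 (2.00-fold lower, adjusted p = 7.72e-05). Dusp16 passed both thresholds by a narrow margin (1 of 9, 2.01% of all genes), and was under the fold threshold without B6 control replicate 2 (-1.19), without SjSS control replicate 3 (-1.11) and when only the 6 control samples were fitted. The other 7 genes had differences between -0.20 and 1.09, of which the last, that of Dusp14, had an SE of 0.54 (adjusted p = 0.176). Dusp1, at 0.17, was called without B6 control replicate 3 (0.47, adjusted p = 0.0352).

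With ACs the strains differed significantly for 7 of 9 genes, against 49.4% of all genes, 5 higher (24.0%) and 2 lower (25.5%). Higher in SjSS were Dusp2 (1.93 ± 0.12, 3.80-fold, adjusted p = 1.36e-10), Dusp14 (1.47 ± 0.51, 2.77-fold, adjusted p = 0.0232), Dusp10 (0.89 ± 0.23, adjusted p = 0.00386), Dusp16 (0.65 ± 0.16, adjusted p = 0.00231) and Dusp1 (0.49 ± 0.17, adjusted p = 0.0252). Lower in SjSS were Dusp6 (-1.06 ± 0.13, 2.08-fold lower, adjusted p = 2.77e-06) and Dusp3 (-0.46 ± 0.08, adjusted p = 0.000125). Dusp2 and Dusp14 passed both thresholds (2 of 9, 8.93% of all genes). The call of Dusp14 was lost whichever of the 6 AC samples was left out (adjusted p up to 0.071), and that of Dusp1 was lost without B6 AC replicate 1 or 2 or SjSS AC replicate 2 or 3 (adjusted p up to 0.0779). Dusp4 (-0.26 ± 0.18, adjusted p = 0.255) and Dusp5 (0.13 ± 0.17, adjusted p = 0.561) did not pass the test.

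With CpG 3 of 9 genes differed between strains, against 19.7% of all genes, 1 higher (10.2%) and 2 lower (9.57%) in SjSS. Dusp2 was lower in SjSS by -1.42 ± 0.11 (2.68-fold, adjusted p = 5.88e-08) and alone passed both thresholds (1 of 9, 2.61% of all genes). Dusp16 was lower by -1.19 ± 0.16 (2.29-fold, adjusted p = 2.17e-05), or -1.40 without SjSS CpG replicate 3. Dusp3 was higher by 0.25 ± 0.08 (adjusted p = 0.0399) with overlapping samples, a call lost under 9 of the alternatives tried, such as leaving out SjSS CpG replicate 2 (0.15, adjusted p = 0.238). For Dusp2 and Dusp16 the strain difference therefore had opposite signs with ACs and with CpG, while the AC samples and the CpG samples of a strain were separate cultures.

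Whether the response itself differed between strains was tested as a strain-by-treatment interaction, the SjSS response minus the B6 response. For ACs it was significant for 4 of 9 genes, against 37.9% of all genes, 2 higher (19.6%) and 2 lower (18.3%). Dusp2 differed by 2.93 ± 0.19 (7.60-fold, adjusted p = 6.72e-10) and Dusp16 by 1.96 ± 0.23 (3.90-fold, adjusted p = 1.78e-06), and these 2 passed both thresholds (7.53% of all genes). Dusp6 fell further in SjSS, by -0.85 ± 0.18 (adjusted p = 0.0012). Dusp3 also fell further, by -0.31 ± 0.11 (adjusted p = 0.04), with a call lost under 10 of the alternatives, such as leaving out SjSS control replicate 1 (-0.26, adjusted p = 0.105). When samples were left out in turn, the difference stayed between 2.84 and 3.05 for Dusp2, 1.76 and 2.09 for Dusp16 and -1.01 and -0.75 for Dusp6, with adjusted p up to 6.86e-09, 1.06e-05 and 0.00489. The untreated strain difference enters these values: for Dusp2 and Dusp16 the SjSS level began below that of B6 and with ACs stood above it.

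The remaining 5 genes had AC interactions that did not pass the test. Dusp1 was at 0.32 ± 0.25 (adjusted p = 0.336), and ran from 0.02 without B6 control replicate 3 to 0.53 without B6 control replicate 1 or SjSS control replicate 2, with an adjusted p of at least 0.0529. Dusp5 at 0.08 ± 0.25 (adjusted p = 0.845), Dusp10 at 0.59 ± 0.33 (adjusted p = 0.185) and Dusp14 at 0.38 ± 0.76 (adjusted p = 0.74). Dusp4 was at -0.49 ± 0.26 (adjusted p = 0.165), and at -0.71 with an adjusted p of 0.0212 without SjSS control replicate 3. Of the 4 inducible nuclear genes, Dusp2 was the one whose AC interaction passed the test.

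For CpG, edgeR found 0 of 9 interactions significant, against 5.85% of all genes, and 0 past both thresholds (0.614%). Unadjusted p was under 0.05 for 3 genes, Dusp3, Dusp2 and Dusp1, and DESeq2 called Dusp3 alone at its adjusted p. The values were 0.39 ± 0.12 for Dusp3 (adjusted p = 0.0503), -0.42 ± 0.18 for Dusp2 (adjusted p = 0.195), -0.52 ± 0.25 for Dusp1 (adjusted p = 0.246) and 0.12 ± 0.23 for Dusp16 (adjusted p = 0.825). The calls changed with single samples: Dusp1 reached -0.82 (adjusted p = 0.0196) without B6 control replicate 3, Dusp2 -0.59 (adjusted p = 0.0289) without SjSS CpG replicate 3 and Dusp3 0.50 (adjusted p = 0.00338) without the same sample. Dusp3 was also called without SjSS control replicate 1 (0.44, adjusted p = 0.0367) and with no filter on low counts (0.41, adjusted p = 0.0448). With the replicate number as a block its adjusted p was 0.0335.

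**Figure D4:**
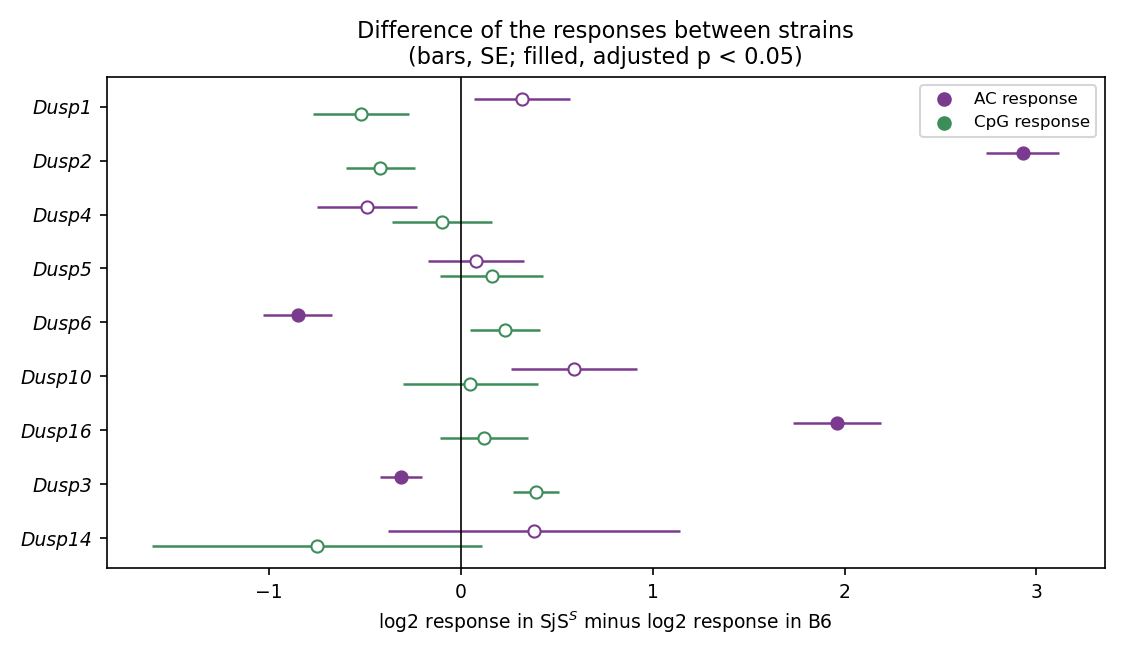
Difference of the log2 responses, SjSS minus B6, for ACs (purple) and CpG (green); bars are SE and filled points have an adjusted p under 0.05. Filled points are the AC interactions of Dusp2 (2.93), Dusp16 (1.96), Dusp6 (-0.85) and Dusp3 (-0.31), and all CpG points are open.

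The AC and CpG samples of a strain were also set against each other, as AC minus CpG. In B6, 6 of 9 genes differed significantly (46.1% of all genes), 3 higher (23.7%) and 3 lower (22.4%) with ACs. Dusp5 was higher with ACs by 1.90 ± 0.19 (3.74-fold, adjusted p = 1.08e-07), and Dusp2 and Dusp16 were lower by -3.07 ± 0.12 (adjusted p = 6.63e-13) and -2.49 ± 0.16 (5.63-fold, adjusted p = 3.48e-10), the 3 genes past both thresholds (7.11% of all genes). In SjSS, 7 of 9 differed (52.2% of all genes), 4 higher (25.7%) and 3 lower (26.5%). Of these, Dusp5 (1.82 ± 0.19, 3.53-fold, adjusted p = 1.3e-07) and Dusp14 (1.97 ± 0.55, adjusted p = 0.00515) passed both thresholds (9.18%). Dusp14 had only 20 counts over the SjSS CpG samples, with 1 count in replicate 3. Its value ran from 1.46 to 2.34 with 1 sample left out (adjusted p up to 0.0273). Dusp10 was at 1.13 ± 0.24 (adjusted p = 0.000549) and over the fold threshold without SjSS AC replicate 1 (1.34) or SjSS CpG replicate 1 (1.35). There Dusp2 was 0.28 ± 0.11 higher with ACs (adjusted p = 0.0467, with a call lost under 10 alternatives, such as without SjSS CpG replicate 2, where it was 0.19) and Dusp16 was -0.65 ± 0.16 lower (1.57-fold, adjusted p = 0.00174). Dusp6 was higher with ACs than with CpG in B6 (0.43 ± 0.13, adjusted p = 0.0117, 0.33 with adjusted p = 0.076 without B6 AC replicate 1) and lower in SjSS (-0.65 ± 0.14, adjusted p = 0.000522). Dusp4 in B6 was at -0.43 ± 0.18 (adjusted p = 0.0569) and was called under 8 of the alternatives. Because the treatments ran for different times, kind and duration cannot be told apart here.

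For each member, the 3 tested genes with the most similar level over the 18 samples were found by Pearson's r of log2 CPM. The points share their libraries and fall into 6 groups, so the r values describe group patterns. Closest to Dusp2 were Dram1 (r = 0.994), Prkcd (r = 0.993) and Tshz1 (r = 0.987), and closest to Dusp16 were Hcar2, Pilra and Lyn (each r = 0.973). Dusp6 was nearest to Paqr7 (r = 0.984), Fam105a (r = 0.982) and Fam168b (r = 0.978), and Dusp3 to Rab7b (r = 0.975), Bhlhe40 (r = 0.972) and Tmem65 (r = 0.970). Dusp5 was nearest to Lasp1 (r = 0.978), Rcan1 (r = 0.973) and Nr4a1 (r = 0.957), Dusp1 to Arfgap3 (r = 0.942), Ttc7b and Cxcl1 (each r = 0.936), and Dusp4 to Cog3 (r = 0.946), Afg3l2 (r = 0.930) and Rapgef5 (r = 0.923). For the scarce genes the best r was lower, at 0.905 with Sertad3 for Dusp10 and 0.852 with Tusc3 for Dusp14. Among the 9 themselves, the closest were Dusp2 and Dusp16 (r = 0.93) and Dusp1 and Dusp2 (r = 0.88), and the most opposed Dusp2 and Dusp3 (r = -0.90).

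The other genes of the pathway were read from lists. Of the MAP kinases themselves, 9 were tested, and Mapk11, which encodes p38β, alone passed both thresholds in each of the 4 responses, with mean levels of 0.917 ± 0.193 CPM (SD) in B6 control, 4.31 ± 0.470 with ACs and 3.92 ± 0.712 with CpG. Mapk7, which encodes ERK5, fell with ACs in SjSS (-0.78 ± 0.06, adjusted p = 5.1e-10) and was at 0.02 ± 0.05 in B6 (adjusted p = 0.782). Among 21 upstream kinases, 5 had a higher and 5 a lower AC response in SjSS than in B6 (19.6% and 18.3% of all genes), and only Map3k8 passed both thresholds for the interaction. Map3k8 encodes TPL2, the kinase that links Toll-like receptors to ERK, and rose with ACs by 0.40 ± 0.08 in B6 (adjusted p = 0.000506) and 1.76 ± 0.08 in SjSS (adjusted p = 4.78e-13). Of 13 other dual-specificity and MAP kinase tyrosine phosphatases tested, 2 had a higher and 5 a lower AC response in SjSS, against the same 19.6% and 18.3% of all genes. Dusp28, an atypical phosphatase, alone of them passed both thresholds, at 15.4 ± 1.78 CPM (SD) in SjSS with ACs and between 3.83 and 5.42 CPM in the means of the other groups.

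Of 23 ERK feedback inhibitors and immediate early genes, 10 had a higher and 4 a lower AC response in SjSS (19.6% and 18.3% of all genes). Past both thresholds were Spred1 (1.97 ± 0.13, adjusted p = 1.4e-09) and Spry2 (1.95 ± 0.22, adjusted p = 1.36e-06), inhibitors of the route from growth factor receptors to ERK. Spry2 fell with ACs in B6 (-1.48 ± 0.16, adjusted p = 8.57e-07) and rose in SjSS (0.47 ± 0.15, adjusted p = 0.0127), unlike Dusp6, which fell in both. Egr1, an ERK-induced transcription factor, passed both thresholds for the CpG interaction instead (-1.45 ± 0.21, adjusted p = 0.000461). Among 16 p38 and JNK effectors and mRNA decay factors, 7 had a higher and 4 a lower AC response in SjSS (19.6% and 18.3% of all genes). Gadd45b, Gadd45g, Mapkapk2 and Rps6ka5 were higher and Zfp36l1 lower past both thresholds (5 of 16, against 7.53% of all genes). The paper's supplement already lists these higher genes, Spred1, Spry2 and Map3k8 as raised with ACs in SjSS in these data. The AC counts of the kinase, feedback and effector lists are therefore a description and not an independent comparison with all genes. Mapkapk2, the main kinase under p38, rose with ACs by 0.81 ± 0.06 in B6 (adjusted p = 5.95e-09) and by 2.17 ± 0.06 in SjSS (adjusted p = 1.61e-15).

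The list of 14 inflammatory transcripts that DUSP1 is known to limit rose in full in all 4 responses, in which 20.0% to 28.6% of all genes rose. Most of the list, such as Tnf and Il6, was already reported by the paper as raised with ACs in SjSS in these data. Its AC counts are therefore a description and not an independent comparison with all genes. The median log2 fold change of the list was 2.67 with ACs in B6, 5.48 with ACs in SjSS, 5.51 with CpG in B6 and 5.11 with CpG in SjSS. With ACs in B6, 12 of the 14 rose past both thresholds (4.47% of all genes in either direction). From its heat map, the paper describes only Il1b of its inflammatory genes as raised in B6 with ACs, modestly, and Il10 as slightly raised. For 13 of 14 the AC response was larger in SjSS (19.6% of all genes), and 12 passed both thresholds (7.53%). With CpG, 13 of 14 were lower in SjSS than in B6 (9.57% of all genes), 5 of them past both thresholds (2.61%). The CpG interaction was lower for 3 and higher for 0 (5.85% of all genes in either direction). Tnf was at 46.0 ± 0.492 CPM (SD) in B6 control and 163 ± 18 with ACs, against 20.6 ± 5.77 and 771 ± 57.7 in SjSS. Il6 was at 5.27 ± 1.38 CPM (SD) with ACs in B6 and 69.3 ± 12.0 in SjSS, with a mean of at most 0.103 CPM in the controls. Dusp1 itself, over the same samples, had an AC interaction of 0.32 ± 0.25 that did not pass the test (adjusted p = 0.336) and that ran from 0.02 to 0.53 with 1 sample left out. Of 10 genes that glucocorticoids induce, 2 rose and 3 fell with ACs in B6 (20.0% and 18.3% of all genes), and 2 rose and 4 fell in SjSS (28.6% and 29.4%). With CpG 0 rose and 7 fell in each strain, where 29.8% of all genes fell in B6 and 26.4% in SjSS. For the AC interaction 1 was higher and 3 lower (19.6% and 18.3% of all genes), and 2 passed both thresholds, each lower (7.53%). As an example, Tsc22d3, which encodes GILZ, had an AC response of 0.26 ± 0.10 in B6 (adjusted p = 0.047) and -1.24 ± 0.10 in SjSS (adjusted p = 5.15e-09).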

How the data were processed

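RNA-seq of 18 BMDM samples was analysed as 6 groups of 3, assigned from the labels. The authors used Partek Flow, with STAR alignment to mm10 and E/M quantification, and deposited estimated counts per gene that were not normalized (41.1% of values were not whole). They were rounded to whole numbers. Library strandedness was not given in the sources used here. Genes were kept by filterByExpr (15789, 76.6% of 20615), scaled by TMM and fitted with 6 group means over all 18 samples by edgeR 4.0.16's quasi-likelihood method (R 4.3.3, limma 3.58.1). SE is the log2 fold change divided by the square root of F, and p-values were adjusted by Benjamini-Hochberg within each of 11 comparisons. The 2 thresholds were 0.05 for the adjusted p and 1.3 for the size of the log2 fold change. Log2 CPM for r used a prior count of 2. CPM per kb used exon unions of GENCODE M21 within the deposited gene span. Summaries used Python 3.11.15 with numpy 2.4.6 and pandas 2.3.3, and plots matplotlib 3.10.9. All scripts that test genes were tested on simulated data. Replicates of a group differed by more than sampling noise in all 18 pairs (chi-square per degree of freedom at least 8.11). Depth was 30688336 to 57139662 counts per sample, which limits Dusp14 and Dusp10.

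Alternatives were DESeq2 1.42.0 (Wald test), its size factors within edgeR, no filter, a filter of 10 counts in 3 samples, a fit restricted to the groups in question, a block for replicate number, omission of every sample in turn, no fold threshold and a log2 fold change over 2. Genes named are the 9 members, up to 3 of the most similar genes of each, and genes of the pathway lists. From each list these are those past both thresholds in either interaction, or else the gene with the smallest p in the AC response of each strain. The inflammatory and glucocorticoid lists are exceptions, with only Tnf, Il6 and Tsc22d3 described as examples and other genes past both thresholds left out. Members and lists were chosen with earlier results of these data known. Same-numbered samples of a strain were checked for pairing: the correlation of their deviations was 0.0198 to 0.264 in 18 pairs and over 0.1 in 9, among them all 3 pairs of B6 control and B6 CpG (0.137 to 0.264). No label says that numbers mark a mouse, and the block, shared by both strains, was kept as an alternative. The CArG motif was widened to its full consensus after the sequences were read.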

Additional observations from a re-analysis of the deposited data

Results flagged for a closer look

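The response to ACs differed between the strains, by edgeR's test of the interaction itself, for 4 of the 9 genes (adjusted p under 0.05). The share of all genes tested was 37.9%. As SjSS minus B6 on the log2 scale, the differences were 2.93 for Dusp2, 1.96 for Dusp16, -0.85 for Dusp6 and -0.31 for Dusp3. Dusp2, Dusp16 and Dusp6 kept an adjusted p under 0.05 under every alternative fit and with any 1 sample left out, and Dusp2 alone also exceeded a log2 fold change of 2. That of Dusp3 was lost under 10, with adjusted p up to 0.105.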

How the results depend on the processing

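Of 99 gene results, 70 kept their direction and their side of the threshold under every alternative, as did 2282 of 2373 pairs of result and alternative. Of 56 significant ones, 8 lost the call under some alternative and 0 changed sign. Without a fold threshold the AC response was called for 5 and 8 of the 9 genes in B6 and SjSS (38.3% and 58.0% of all genes). For CpG it was 7 and 7 (57.9% and 54.2%). The strain difference was called for 2, 7 and 3 in control, with ACs and with CpG (19.6%, 49.4% and 19.7%). The AC interaction was called for 4 (37.9%), and AC against CpG for 6 and 7 in B6 and SjSS (46.1% and 52.2%). At a log2 fold change over 2 the number called was 0 for the AC response in B6 and 2 for CpG in SjSS. It was 0 for each strain difference, 1 for the AC interaction and 0 for AC against CpG in SjSS. The share of all genes at this stricter threshold was not counted. Fitting only the groups compared left 0 for the strain difference in control. Leaving out 1 sample gave 0 to 1 there, 1 to 2 with ACs and 1 to 2 with CpG, 4 to 5 and 3 to 4 for the CpG response in B6 and SjSS and 2 to 3 for AC against CpG in SjSS. The strain difference of Dusp6 with CpG, 0.02, was -0.0038 with DESeq2 and -0.0039 with its size factors in edgeR, a change that the scaling makes by its construction.

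Leaving out 1 sample turned the sign of 11 values that did not pass the test. The strain difference in control then ran from -0.04 to 0.47 for Dusp1 and -0.22 to 0.23 for Dusp5, and that with CpG from -0.01 to 0.27 for Dusp4, -0.10 to 0.14 for Dusp6 and -0.21 to 0.86 for Dusp14. The AC interaction of Dusp5 ran from -0.10 to 0.35. The CpG interaction ran from -0.32 to 0.12 for Dusp4, -0.02 to 0.43 for Dusp5, -0.18 to 0.21 for Dusp10 and -0.09 to 0.24 for Dusp16, and the CpG response of Dusp14 in B6 from -0.93 to 0.15.

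With the replicate number as a block in edgeR, the number called was the same in all 11 comparisons. It was 3 for the AC response in SjSS and 4 for CpG in B6, for example. The CpG interaction of Dusp3 was called (0.39, adjusted p = 0.0335). This block gives same-numbered samples of both strains a shared effect, although their mice differ. It therefore cannot test pairing by mouse within a strain. In 16 of 18 comparisons of a control or AC sample with the 3 samples of another group of its strain, the same number gave the highest correlation, a hint from the data and not from the design. Depth limits Dusp14 above all.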
